A study of Mus musculus with 4 samples.

Results

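The interferon-stimulated genes described here were 45 genes chosen by symbol, from the interferon receptors to the antiviral proteins at the end of the response. All 45 were found among the 23337 gene symbols of the count table, and all 45 passed the filter on low counts, as did 18547 genes in all. They were measured by RNA-seq in medullary thymic epithelial cells (mTECs), sorted as CD45-EpCAM+UEA-1+Ly51- cells from the thymus of C57BL/6 mice at 4 weeks of age. There were 2 WT libraries and 2 labelled *Sirt6* cKO, which carry a genotype of *Sirt6*-/- in the labels. In the cKO mice *Foxn1*-Cre deletes a floxed *Sirt6* in thymic epithelial cells, so cells of other lineages in the same thymus keep the gene, and the WT mice lacked the Cre. The 2 libraries of a group came from independent samples, and the number of mice behind each one is not given in the sources used here.

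The total of counts lay between 61102704 and 65907745 in the 4 libraries. *Sirt6*, the targeted gene, had 622 and 755 counts in WT, against 882 and 835 in the cKO-labelled libraries. It was therefore not lower in them (log2 fold change 0.37 ± 0.32 SE, adjusted p = 0.8 in edgeR's quasi-likelihood test). The deleted exons are not named in the sources used here, and a count over the whole gene does not separate them from the rest. The groups are called by their labels for this reason. The paper reports the inactivation of *Sirt6* by quantitative PCR of sorted mTECs and by western blot of cultured thymic epithelial cells. All 10 mTEC markers examined, *Epcam*, *Aire* and *Cd80* among them, had counts in every library. Markers of other cells were present as well, and those of macrophages differed between the groups, as described with the results below.

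Interferons are secreted proteins that cells release on sensing viral or other misplaced nucleic acid. Type I interferons bind IFNAR1 with IFNAR2 and activate STAT2, which acts with IRF9 on a promoter sequence called the ISRE, whereas interferon gamma binds IFNGR1 with IFNGR2 and acts through a sequence called the GAS. The genes switched on in this way block viral entry, translation and replication, or feed back on the pathway. Mature mTECs are known to keep a tonic interferon response without infection, together with type III interferon, and it is thought to let thymocytes meet the products of these genes.

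The promoters of the members carried the letters of these sequences more often than promoters at large. A RefSeq promoter (GRCm38.p6, 250 bases before to 50 after the start, 300 bases in all) was matched for 35 of the 45 members. The ISRE core, searched on both strands as GAAA and GAAA with any 2 bases between them, was found in 20 of the 35 members (57.1%), against 3.99% of 27025 genes with a promoter and 3.44% of 32851 promoters. The GAS core, TTC and GAA with any 3 bases between them, which reads the same on both strands, was found in 12 of the 35 (34.3%), against 9.55% of genes and 8.3% of promoters. The GAS core overlapped an ISRE core in 2 of them, *Ifitm3* and *Bst2*. When only the 250 bases before the start were read, 16 of the 35 members (45.7%, against 3.46% of genes) held the ISRE core and 9 (25.7%, against 8.13%) held the GAS core. A match is a description of the letters and not a binding site.

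Windows around these cores are shown for 8 members that recur in the results, each on the strand of its gene and 5′ to 3′, with the ISRE cores in capitals. *Ifit1* and *Ifit3* are shown because they belong to 1 gene cluster and *Ifit3* alone of the pair differed between the groups, *Isg15* because it held 3 overlapping cores, *Socs1* as the feedback inhibitor, and *Gbp2*, *Igtp*, *Irgm1* and *Irgm2* as GTPases. A core on the other strand reads TTTC and TTTC with any 2 bases between them.
Ifit1, chr19:34640773-34640825, plus strand: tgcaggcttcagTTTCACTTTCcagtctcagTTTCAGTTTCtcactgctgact
Ifit3, chr19:34583361-34583428, plus strand: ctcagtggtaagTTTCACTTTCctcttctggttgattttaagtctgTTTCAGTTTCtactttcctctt
Isg15, chr4:156200863-156200908, minus strand: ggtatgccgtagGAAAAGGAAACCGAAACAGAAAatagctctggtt
Socs1, chr16:10785592-10785631, minus strand: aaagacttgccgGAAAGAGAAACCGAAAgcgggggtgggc
Gbp2, chr3:142620592-142620625, plus strand: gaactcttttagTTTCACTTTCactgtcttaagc
Igtp, chr11:58199510-58199543, plus strand: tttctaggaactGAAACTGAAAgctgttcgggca
Irgm2, chr11:58214901-58214934, plus strand: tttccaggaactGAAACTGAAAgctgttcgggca
Irgm1, chr11:48871423-48871462, minus strand: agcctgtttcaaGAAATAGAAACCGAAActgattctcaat

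The windows of *Igtp* and *Irgm2* were identical at 33 of 34 positions, and these genes lie beside each other on chromosome 11. *Ifit1* and *Ifit3* each held 2 separate cores, and 9 members held 2 or more. All 6 GBP and IRG members with a matched promoter held the ISRE core, whereas none of the 3 receptors did. Of the 6 members that differed between the groups at an unadjusted p under 0.05, 5 had a matched promoter and 2 of these held the core, *Ifit3* before its start and *Ifitm3* after it. Of the 30 other members with a promoter, 18 held it. The members were chosen by symbol and include related genes, and their clustering along the chromosomes was not compared with that of all genes. Of the 45, 24 lay in 10 clusters in which neighbours were at most 200000 bases apart (GENCODE M21, GRCm38). The largest of these held 3 members each: *Ifit2*, *Ifit3* and *Ifit1* on chromosome 19 from 34550694 to 34650009, *Gbp7*, *Gbp3* and *Gbp2* on chromosome 3, *Oas2*, *Oas3* and *Oas1a* on chromosome 5, and *Ifitm2*, *Ifitm1* and *Ifitm3* on chromosome 7.

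The interferon-stimulated genes were expressed at a substantial level in all 4 libraries. In TPM, which is a level per length of transcript, the mean over the 4 libraries ran from 5.01 for *Mx2* to 553.7 for *Ifngr1*, with a median of 40.55. That mean exceeded 7.75 TPM, the median of all genes with a count, in 42 of the 45 members. It reached 100 TPM in 13 members, which included *Ifngr1*, *Ifitm3* at 426.8, *Usp18* at 412.3, *Socs1* at 301.3, *Ifi35* at 299.9, *Oasl2* at 276.8 and *Ifit1* at 252.3. It was under 10 TPM in 5 members, *Mx2*, *Oas2*, *Oas1a*, *Isg20* and *Isg15*. The neighbours in this order did not differ beyond their spread in many places, as *Usp18* and *Ifitm3* show, with SDs of 12.5 TPM and 98.8 TPM in WT. Together the members held 0.509% and 0.473% of the counts in WT and 0.419% and 0.427% in the cKO-labelled libraries, so the groups did not overlap in this share. The share is scaled by library size alone. Under that scaling the median log2 fold change of all genes was -0.0932, beside -0.0047 with the scaling used for the tests below. An exact two-sided permutation test of 2 libraries against 2 cannot go below p = 0.333. In bulk samples, fewer cells of a type and less RNA per cell cannot be told apart.

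Most members were not called at an unadjusted p under 0.05, and those that were called were mostly lower in the cKO-labelled libraries. At an unadjusted p under 0.05, 6 of the 45 members (13.3%) were called, beside 8.58% of all genes tested. The lower ones were 5 (11.1%, beside 3.32% of all genes): *Ifit2*, *Ifit3*, *Ifitm3*, *Xaf1* and *Rtp4*. The higher one was *Oasl1* (2.22%, beside 5.27% of all genes). Here passing the test means this unadjusted p, and every adjusted p printed is over all genes tested. No member passed an adjusted p of 0.05 in edgeR, where the lowest adjusted p was 0.541 and 1 gene of 18547 passed (0.00539%). In DESeq2, *Rtp4* (adjusted p = 0.0129), *Ifit3* and *Ifitm3* (both adjusted p = 0.0368) passed, all 3 lower. Over all genes 1.83% passed by that rule, 0.795% lower and 1.03% higher. At DESeq2's unadjusted p under 0.05, 7 members were lower (beside 4.38% of all genes) and 2 were higher (beside 5.8%), which added *Ifitm2* and *Igtp* to the lower ones and *Mx1* to the higher one. The log2 fold change was below 0 in 29 of the 45 members and above 0 in 16, with a median of -0.13, beside a median of -0.0047 and 50.4% below 0 over all genes.

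**Figure D1:**
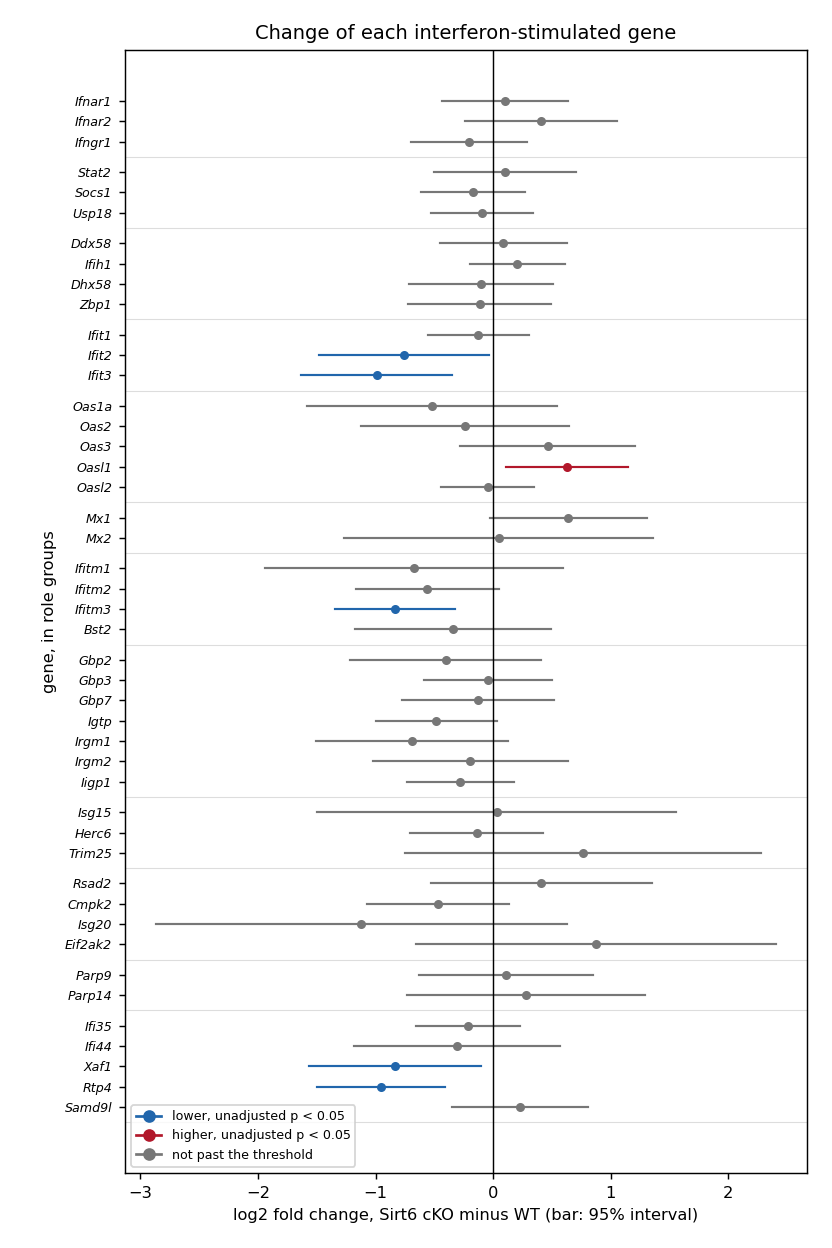
Log2 fold change of each of the 45 interferon-stimulated genes between the 2 libraries labelled *Sirt6* cKO and the 2 WT libraries (x axis), with genes in role groups on the y axis and bars for the 95% interval of the edgeR fit. The 5 blue genes were lower and the 1 red gene was higher at an unadjusted p under 0.05, and the other 39 intervals include 0.

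The range of log2 fold changes was -1.12 (*Isg20*) to 0.88 (*Eif2ak2*), neither of which passed the test, and 1 of the 45 members exceeded an absolute value of 1. The 95% interval of the log2 fold change lay within -1 to 1 for 18 members, so for these a change of 2-fold lay outside the interval. For the other 27 it did not. The groups did not overlap in 21 of the 45 members (46.7%), beside 41.9% of all genes. In 15 of these the cKO-labelled libraries were lower (33.3%, beside 20.3%), and in 6 they were higher (13.3%, beside 21.6%).

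**Figure D2:**
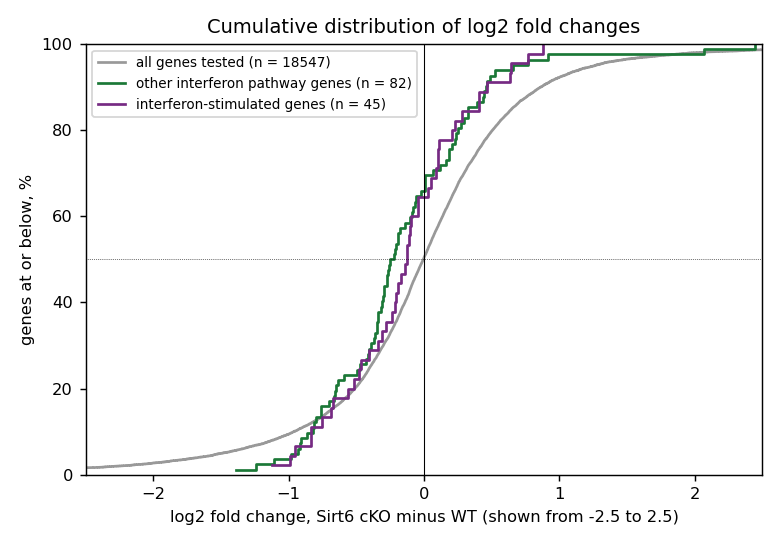
Cumulative share of genes (y axis, percent) at or below each log2 fold change (x axis, *Sirt6* cKO minus WT) for the 45 interferon-stimulated genes, 82 other interferon pathway genes and 18547 genes tested. Both interferon curves cross 50% to the left of 0, at medians of -0.13 and -0.24, and all genes cross it at -0.0047.

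The members that kept an unadjusted p under 0.05 in the same direction under each of 13 alternative settings were 3, *Ifit3*, *Ifitm3* and *Rtp4*. *Ifit3*, a tetratricopeptide protein that partners other IFIT proteins in binding foreign RNA, had 63.7 and 49.2 CPM, the count scaled to the size of its library, in WT and 29.2 and 27.6 CPM in the cKO-labelled libraries. The groups did not overlap, and the mean was 56.4 ± 10.2 CPM against 28.4 ± 1.14 CPM (SD, 2 libraries each), 1.99-fold lower, with a log2 fold change of -0.99 ± 0.26 SE (adjusted p = 0.541). In the annotation, 51.2% of the 50-base words of *Ifit3* transcripts are shared with its near copy *Ifit3b*, so reads may have been split between them. *Ifit3b* had 2274, 1253, 944 and 830 counts in library order, WT first, and did not pass the test (log2 fold change -0.93, adjusted p = 0.59).

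*Ifitm3*, a membrane protein that hinders the fusion of viruses in endosomes, had 143.1 and 179.7 CPM in WT, against 88.1 and 92.7 in the cKO-labelled libraries. The mean was 161.4 ± 25.9 against 90.4 ± 3.21 CPM (SD), 1.79-fold lower, with a log2 fold change of -0.84 ± 0.20 SE (adjusted p = 0.541). *Rtp4*, a receptor transporter protein that is induced by interferon and acts as a brake on the response, had 81.3 and 73.2 CPM in WT, against 39.1 and 40.7 in the other group. That is a mean of 77.3 ± 5.70 against 39.9 ± 1.13 CPM, 1.94-fold lower, with a log2 fold change of -0.95 ± 0.22 SE and the smallest p of the members before adjustment (adjusted p = 0.541). Neither gene's groups overlapped. *Rtp4* shares 13.6% of its words with the overlapping *Gm45338* of the same strand.

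**Figure D3:**
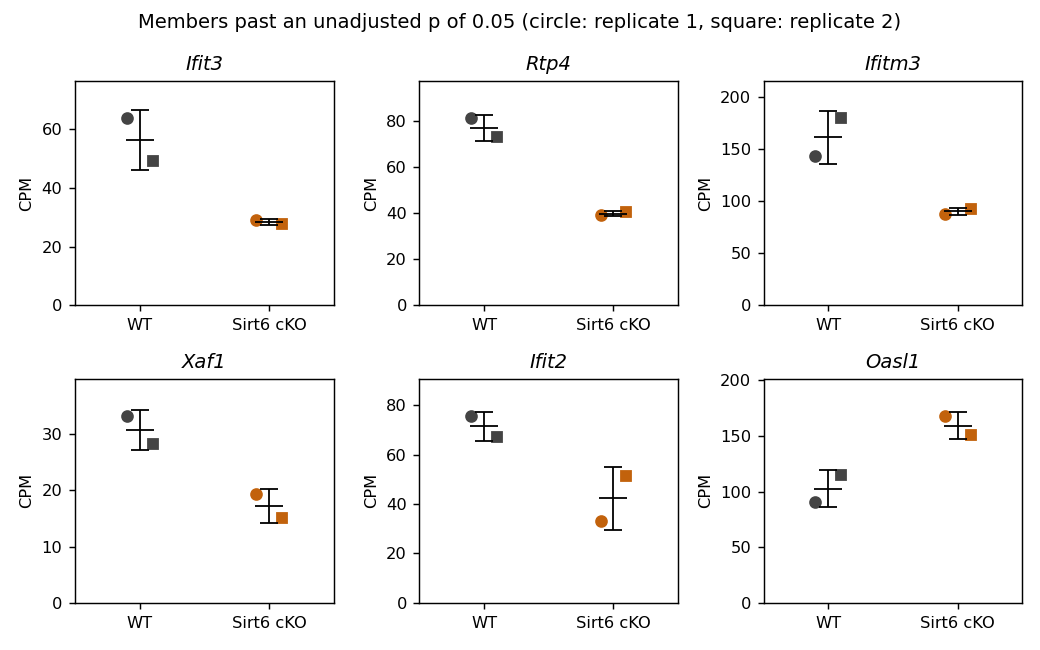
CPM (y axis, from 0) of the 6 members with an unadjusted p under 0.05 in WT and in the cKO-labelled libraries. Circles are replicate 1, squares replicate 2, and the bars give the mean and SD of 2 libraries. *Ifit3*, *Rtp4*, *Ifitm3*, *Xaf1* and *Ifit2* are lower in both cKO libraries, and *Oasl1* is higher in both.

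The other 3 members that passed lost their call in some fits without 1 library, in part with a log2 fold change as large as before. *Ifit2*, another IFIT protein, had 75.5 and 67.3 CPM in WT, against 33.3 and 51.3 in the cKO-labelled libraries (log2 fold change -0.76 ± 0.29 SE, adjusted p = 0.565). It lost this call without WT 1 (-0.69), without WT 2 (-0.84) and without *Sirt6* cKO 1 (-0.47). *Xaf1*, a promoter of apoptosis, had 33.2 and 28.1 CPM in WT, against 19.4 and 15.03 in the other group (log2 fold change -0.83 ± 0.29 SE, adjusted p = 0.548), and it lost this call when any 1 library was left out (-1.03 to -0.68). In such fits 1 group holds 1 library, which is assumed to vary like the libraries of the other group. *Oasl1*, an OAS-like protein that restrains the translation of *Irf7*, had 90.8 and 114.8 CPM in WT, against 167.9 and 150.6 in the cKO-labelled libraries, 1.55-fold higher (log2 fold change 0.63 ± 0.21 SE, adjusted p = 0.541). It lost this call without WT 1 (0.45), without *Sirt6* cKO 1 (0.55) and without *Sirt6* cKO 2 (0.69). In all 3 genes the groups did not overlap with 4 libraries.

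The receptors and the first steps of the response did not pass the test. *Ifnar1* and *Ifnar2*, the chains of the type I receptor, lie beside each other on chromosome 16. *Ifnar1* had 93.6 and 75.7 CPM in WT, against 87.1 and 94.7 in the cKO-labelled libraries, with overlapping groups (log2 fold change 0.10, 95% interval -0.43 to 0.64). *Ifnar2* had 52.3 and 38.1 CPM against 62.2 and 57.8 CPM, higher in both cKO libraries but with adjusted p = 0.715. *Ifngr1*, the ligand-binding chain for interferon gamma, had 654.8 and 481.0 CPM against 490.3 and 496.1 CPM (log2 fold change -0.20, adjusted p = 0.826). The WT libraries of *Ifngr1* lay further apart than the groups.

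*Stat2*, the type I transducer, had 82.5 and 68.7 CPM in WT, against 92.2 and 69.9 in the cKO-labelled libraries, and the groups overlapped. *Socs1*, which inhibits the receptor-bound kinases, had 179.1 and 175.9 CPM against 169.1 and 146.0 CPM, lower in both cKO libraries (log2 fold change -0.17, adjusted p = 0.843). *Usp18*, which strips ISG15 from proteins and blocks IFNAR2, had 355.7 and 331.7 CPM against 291.1 and 353.6 CPM. The 95% intervals of *Stat2*, *Socs1* and *Usp18* all lay within -1 to 1 on the log2 scale. None of the 3 passed the test, and of them only *Socs1* had groups that did not overlap.

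The sensors of nucleic acid had log2 fold changes between -0.11 and 0.21. *Ifih1*, the MDA5 sensor of long double-stranded RNA, had 208.7 and 199.7 CPM in WT, against 228.7 and 242.3 in the cKO-labelled libraries (log2 fold change 0.21, 95% interval -0.20 to 0.61). *Zbp1*, a sensor of Z-form nucleic acid, had 69.8 and 79.0 CPM against 78.8 and 58.6 CPM, with overlap. The other RNA sensors, *Ddx58* (RIG-I) and *Dhx58* (LGP2), had log2 fold changes of 0.09 and -0.10. None of the 4 passed the test, and all 4 intervals lay within -1 to 1. The groups did not overlap in 2 of the 4 (50%, beside 41.9% of all genes). These were *Ifih1*, higher in both cKO-labelled libraries, and *Dhx58*, lower in both.

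Within the IFIT cluster, 2 of the 3 members passed the test, both lower (66.7%, beside 3.32% of all genes). *Ifit1*, which binds capped foreign RNA, had 318.2 and 315.0 CPM in WT, against 262.3 and 318.4 in the cKO-labelled libraries. The groups overlapped and the log2 fold change was -0.12 (adjusted p = 0.891, 95% interval -0.56 to 0.31), while *Ifit2* and *Ifit3* passed the test as given above. The difference between the genes themselves was not tested.

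The OAS family, whose enzymes make the 2-5A messenger that activates RNase L, and the Mx GTPases went in both directions. *Oasl2*, the neighbour of *Oasl1* on chromosome 5, had 377.2 and 426.7 CPM in WT, against 379.4 and 399.8 in the cKO-labelled libraries (log2 fold change -0.05). *Oas3* had a log2 fold change of 0.47, *Oas2* of -0.24 and *Oas1a* of -0.52, and none passed the test. *Oas1a* shares 57.6% of its words with *Oas1g*, and its value is uncertain for this reason. *Mx1*, a dynamin-like antiviral GTPase whose allele is defective in most laboratory strains, had 24.8 and 20.5 CPM in WT, against 37.3 and 33.3 in the other group. Its groups did not overlap (log2 fold change 0.64 ± 0.27 SE, adjusted p = 0.598). *Mx2*, annotated as a polymorphic pseudogene, had 3.93 and 6.96 CPM against 6.96 and 4.30 CPM.

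The IFITM proteins and tetherin had log2 fold changes below 0 in all 4 members (beside 50.4% of all genes). Of the 4, 1 passed the test, *Ifitm3*, which was lower (25%, beside 3.32% of all genes). *Ifitm2* had 65.3 and 87.4 CPM in WT, against 50.1 and 53.4 in the cKO-labelled libraries, with no overlap (log2 fold change -0.56 ± 0.24 SE, adjusted p = 0.611). It shares 48.5% of its words with other genes, *Gm45717* on the same strand above all. *Ifitm1* and *Bst2*, the tetherin that holds budding virions at the cell surface, had log2 fold changes of -0.67 and -0.34. Without 1 library these ran from -1.15 (without WT 1) to -0.01 (without WT 2) for *Ifitm1* and from -0.78 (without *Sirt6* cKO 1) to -0.02 (without *Sirt6* cKO 2) for *Bst2*. WT 2 was the highest of the 4 libraries for all 4 of these genes. *Ifitm1* had 5.24 CPM in WT 1 and 11.3 CPM in WT 2, a gap of 2.16-fold between replicates.

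The GBP and IRG GTPases attack the vacuoles of intracellular pathogens and are strongly induced by interferon gamma. All 7 members had log2 fold changes below 0 (beside 50.4% of all genes), and none of the 7 passed the test (beside 8.58%). *Igtp* had 263.1 and 198.1 CPM in WT, against 157.8 and 172.6 in the cKO-labelled libraries (log2 fold change -0.48 ± 0.21 SE, adjusted p = 0.608). *Iigp1* had 351.0 and 303.3 CPM against 245.8 and 293.2 CPM (log2 fold change -0.28, adjusted p = 0.718). The groups did not overlap in 3 of the 7 (42.9%, beside 41.9% of all genes), *Igtp*, *Iigp1* and *Irgm1*, and *Irgm1* had a log2 fold change of -0.69 (adjusted p = 0.637). The values of *Gbp2*, *Gbp3*, *Gbp7* and *Irgm2* ran from -0.40 to -0.04, and their groups overlapped. The values of *Gbp3*, *Gbp7* and *Irgm2* turned above 0 without some library. WT 1 was the highest library for 6 of the 7, the exception being *Irgm2*, so here the higher WT library was not the one of the IFITM genes. *Igtp* and *Irgm2*, whose ISRE windows were nearly identical, share 162 exonic bases on the same strand in the annotation.

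The ISG15 system and the RNA enzymes held 3 of the 4 members whose replicates differed more than 2-fold. *Isg15*, the ubiquitin-like modifier, was low for a member, with 2.98 and 3.35 CPM in WT, against 4.06 and 2.40 in the cKO-labelled libraries, and its promoter held 3 ISRE cores. *Herc6*, the main mouse ligase for ISG15, had 201.8 and 158.7 CPM against 142.3 and 184.9 CPM. *Trim25*, a ligase that acts on RIG-I, had 60.2 and 67.8 CPM in WT, 172.4 CPM in *Sirt6* cKO 1 and 45.5 CPM in *Sirt6* cKO 2. The cKO libraries of *Trim25* differed 3.79-fold, and its log2 fold change of 0.77 (adjusted p = 0.776) turned to -0.49 without *Sirt6* cKO 1.

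*Rsad2* (viperin) and *Cmpk2*, its neighbour on chromosome 12, make and supply a chain-terminating nucleotide. *Rsad2* had 61.5 and 31.2 CPM in WT, against 67.6 and 55.5 in the cKO-labelled libraries, and *Cmpk2* had 43.8 and 50.7 CPM against 32.5 and 35.8 CPM. The groups overlapped for *Rsad2* and did not for *Cmpk2* (log2 fold change -0.47, adjusted p = 0.649). *Eif2ak2*, the kinase PKR, had 23.2 and 7.43 CPM in WT, against 20.6 and 35.8 in the other group, and the exonuclease gene *Isg20* had 5.25 and 5.85 CPM against 3.88 and 1.23 CPM. Replicates differed 3.12-fold in WT for *Eif2ak2* and 3.15-fold in the cKO libraries for *Isg20*, so these extremes of the fold change had wide intervals. The log2 fold change of *Eif2ak2* was 1.90 without WT 1 and 0.28 without WT 2, and that of *Isg20* ran from -2.17 (*Sirt6* cKO 1 left out) to -0.53 (*Sirt6* cKO 2 left out).

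The ADP-ribosyltransferases *Parp9* and *Parp14* overlapped between the groups, with 82.7 and 50.4 CPM against 69.3 and 74.2 CPM for *Parp9* and 28.3 and 43.0 CPM against 56.7 and 30.0 CPM for *Parp14*. *Ifi35*, a leucine zipper protein, had 183.2 and 215.9 CPM in WT, against 175.1 and 169.2 in the cKO-labelled libraries (log2 fold change -0.21, adjusted p = 0.791). *Samd9l*, a restriction factor that halts translation, and *Ifi44* had log2 fold changes of 0.23 and -0.31, and neither passed the test.

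**Figure D4:**
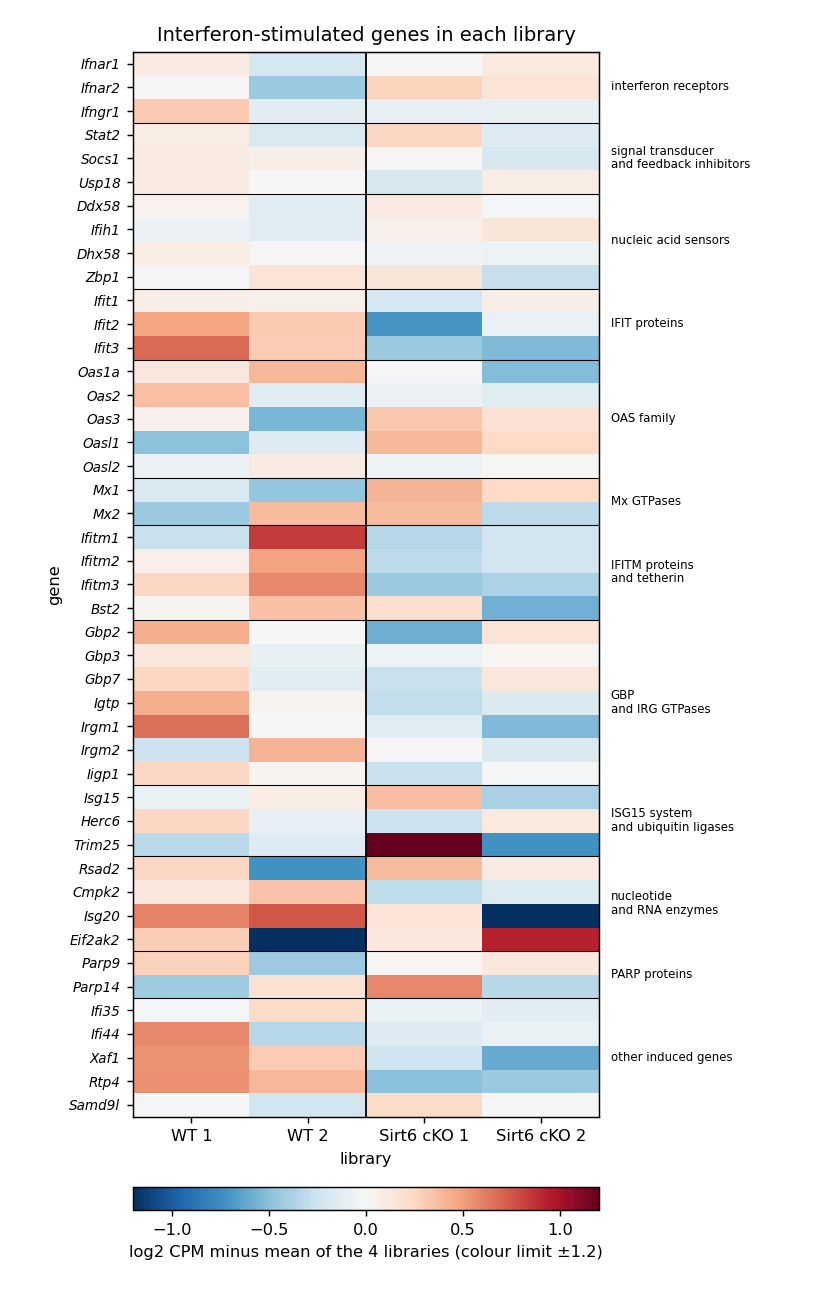
Log2 CPM of each of the 45 interferon-stimulated genes (rows, in role groups) in each library (columns) as a difference from the gene's mean over the 4 libraries, red above and blue below that mean, with values beyond 1.2 in the end colours. *Ifit3* and *Rtp4* are red in both WT libraries and blue in both cKO libraries, while the IFITM genes peak in WT 2 and most GBP and IRG genes in WT 1.

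Differences between replicates and between group means are set side by side here, but they are not like measures. A group mean averages 2 libraries and so varies less than 1 library does. For the members the median absolute difference in log2 CPM was 0.31 between the WT libraries, 0.20 between the cKO-labelled libraries and 0.24 between the group means. Over all genes tested these medians were 0.46, 0.41 and 0.41, each larger. The median deviation of the members from their own mean was 0.10 and 0.01 in the WT libraries, against -0.04 and -0.08 in those labelled cKO, on the log2 CPM scale. The highest library was WT 1 for 18 members, WT 2 for 12, *Sirt6* cKO 1 for 11 and *Sirt6* cKO 2 for 4. In 4 members replicates of a group differed more than 2-fold, and these were *Ifitm1*, *Eif2ak2*, *Trim25* and *Isg20*.

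The rest of the pathway was described by a list of 99 genes, of which 98 had a row and 82 were tested. At an unadjusted p under 0.05, 5 of the 82 were lower (6.1%, beside 3.32% of all genes) and 2 were higher (2.44%, beside 5.27%). No gene of the list passed an adjusted p of 0.05 in edgeR, and 1, *Tgtp2*, did in DESeq2 (adjusted p = 0.0355). The log2 fold change was below 0 in 54 of the 82, with a median of -0.24. The groups did not overlap in 43 of the 82 (52.4%, beside 41.9% of all genes).

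Of the ligands, the type I interferons were scarce. Among 18 type I genes, 9 were at 0 in every library and 1, *Ifnz*, had a count in every library, with 5, 4, 2 and 4 counts in library order, WT first. Summed over the 18 genes there were 130, 55, 74 and 49 counts in that order, and the groups overlapped. *Ifnl2*, a type III interferon, had 616 and 735 counts in WT, against 233 and 320 in the cKO-labelled libraries. Its log2 fold change was -1.24 ± 0.39 SE (adjusted p = 0.541), and the call was lost without WT 2 (-1.09) and without *Sirt6* cKO 1 (-1.07). Its near copy *Ifnl3*, with which it shares 31.7% of its words, had 596, 433, 290 and 497 counts and overlapped between the groups. *Ifng*, a product of lymphocytes, had 788 counts in WT 1, against 361 in the other WT library and 309 and 326 in those labelled cKO (log2 fold change -0.80, adjusted p = 0.714).

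Of the factors that carry the signal to the promoters, *Irf9* and *Irf7* did not pass the test. *Irf9*, the DNA-binding partner of STAT2, had 12104 and 12793 counts in WT, against 9219 and 10776 in the cKO-labelled libraries (log2 fold change -0.27, adjusted p = 0.717). *Irf7*, which amplifies type I interferon, had 1297 and 1378 counts against 1037 and 615 counts (log2 fold change -0.63, adjusted p = 0.705). The groups did not overlap in either gene, and both were lower in both cKO-labelled libraries.

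Among 48 further interferon-stimulated genes, 4 were lower (8.33%, beside 3.32% of all genes) and 1 was higher (2.08%, beside 5.27%), and 37 had a log2 fold change below 0. The lower ones were the GTPase gene *Tgtp2* (log2 fold change -0.91, adjusted p = 0.541), *Slfn1*, a Schlafen gene (-1.39, adjusted p = 0.541), *Ifit1bl1* (-0.98, adjusted p = 0.541) and *Phf11b* (-1.11, adjusted p = 0.541). *Tgtp2* had 14351 and 10018 counts in WT, against 6209 and 6303 in the other group, and it shares 90.6% of its words with other genes, *Tgtp1* above all. *Ifit1bl1* lies within the IFIT cluster of chromosome 19, between *Ifit3* and *Ifit1*, and had 3070 and 2221 counts against 1228 and 1351 counts. *Slfn1* had 1287 and 839 counts against 365 and 415 counts, and *Phf11b* had 3050 and 1827 counts against 979 and 1200 counts. The groups did not overlap in these 4 genes. *Slfn1* lost its call without *Sirt6* cKO 1 (-1.34), *Phf11b* without WT 1 (-0.74) or *Sirt6* cKO 1 (-1.01), and *Ifit1bl1* without any 1 library but WT 2 (-1.02 to -0.78).

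The pathway genes that were higher were 2. *Adar*, which edits double-stranded RNA and keeps MDA5 silent, had 1552 and 1512 counts in WT, against 3317 and 2225 in the cKO-labelled libraries (log2 fold change 0.92 ± 0.31 SE, adjusted p = 0.548). *Parp10*, a further ADP-ribosyltransferase gene, had 4666 and 2994 counts against 6858 and 5653 counts (log2 fold change 0.77, adjusted p = 0.562). The call of *Adar* was lost without WT 1 (0.89), WT 2 (0.92) or *Sirt6* cKO 1 (0.55), and that of *Parp10* without WT 2 (0.50) or *Sirt6* cKO 1 (0.58). *Adar* overlaps *Chrnb2* on the opposite strand over 1365 exonic bases, and whether the counting used strand is not given in the sources used here.

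Macrophage markers were lower in the cKO-labelled libraries, as the lower members were. Their summed level over 6 genes was 1538 and 656.7 TPM in WT, against 408.8 and 422.7 in the cKO-labelled libraries. All 6 had a log2 fold change below 0 (beside 50.4% of all genes). Of the 6, 4 were lower at an unadjusted p under 0.05 (beside 3.32% of all genes), *Adgre1*, *Cd68*, *C1qa* and *C1qb*. None of the 6 was at 0 in any library. The sum was lower in both cKO-labelled libraries than in either WT library, as were *Ifit3*, *Rtp4* and *Ifitm3*, and it was higher in WT 1 than in WT 2. Within WT, *Ifit3* (63.7 against 49.2 CPM) and *Rtp4* (81.3 against 73.2 CPM) were also higher in WT 1. *Ifitm3* was higher in WT 2 (179.7 against 143.1 CPM in WT 1), so it did not follow the sum there. Without WT 1 the log2 fold changes of *Ifit3* (-0.82), *Ifitm3* (-1.02) and *Rtp4* (-0.90) kept their calls, 5 members were lower, with *Ifitm1* and *Ifitm2* in place of *Ifit2* and *Xaf1*, and the median was -0.09. The macrophage sum of WT 2 was still above both cKO-labelled libraries. Macrophages express many of these genes too, and what part they had in the results was not tested.

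**Figure D5:**
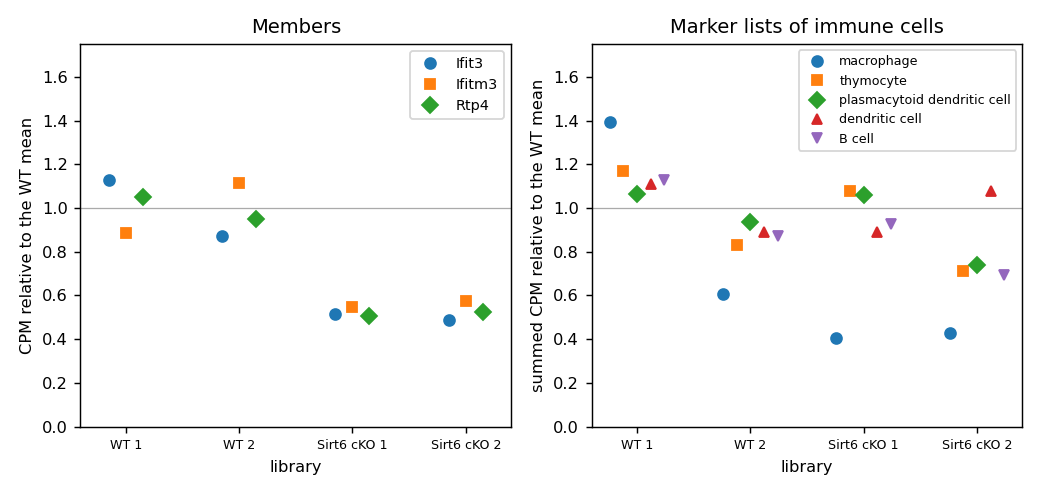
Left, CPM of *Ifit3*, *Ifitm3* and *Rtp4* in each library relative to the gene's WT mean. Right, the summed CPM of marker lists of 5 immune cell types relative to the WT mean of each list. Points are shifted sideways to be seen. The 3 genes and the macrophage sum are each lower in both cKO libraries than in either WT library, and the macrophage sum is highest in WT 1.

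The summed levels of the other immune cell lists moved less. The summed level of 8 thymocyte markers was 1065 and 773.2 TPM in WT, against 950.4 and 597.7 in the cKO-labelled libraries, with overlap and no gene called. Markers of plasmacytoid dendritic cells, the professional producers of type I interferon, summed to 412.1 and 421.2 TPM against 370.4 and 241.1 TPM. Of this, *Klk1* alone gave 239.0 and 269.2 TPM in WT, against 167.0 and 90.7 TPM, and it was the 1 of 5 called (lower). Of the 5, 3 had a log2 fold change above 0, and their defining gene *Siglech* had 3761, 4450, 4829 and 4228 counts. Dendritic cell markers lay between 34.6 and 45.3 TPM and B cell markers between 162.0 and 244.0 TPM, with *Pax5* at 0 in WT 1 and *Sirt6* cKO 2, and no gene of these lists was called. Of the mTEC markers, *Epcam* (log2 fold change 0.48), *Aire* (0.65) and *Cd80* (0.94) were higher in the cKO-labelled libraries at an unadjusted p under 0.05. *Ccl21a* was lower (-2.37), with 32962 and 78096 counts in WT, against 8324 and 12621 in the other group. This was a larger change than that of any macrophage marker, of which *C1qb* changed most (-1.56). By flow cytometry, the paper reports a higher proportion of CD80+ mTECs in the cKO mice, but no such difference for Aire or MHC II. A proportion of positive cells and an RNA level in a bulk sample are not like measures. Of the 6 cTEC markers *Ly75* and *Dll4* were called higher, while the other 4 had a log2 fold change below 0 and were not called. The cTEC markers summed to 848.2 and 837.3 TPM in WT, against 815.8 and 591.5 TPM in the cKO-labelled libraries. Of the 5 fibroblast markers *Lum* was called lower, and 3 had a log2 fold change above 0. No endothelial marker was called. The part of these differences in the values of the members was not tested.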

How the data were processed

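RNA-seq was deposited for mTECs of 4-week-old mice, 2 WT and 2 *Sirt6* cKO samples. The authors trimmed and aligned the reads to mm10 and quantified genes, and their processing notes name HISAT2 2.1.0 and StringTie 1.3.3. The deposited counts were whole reads per gene without normalization, and the deposited TPM values carried an extra line with another value, their total, which was left out. The gene annotation and the use of strand are not given in the sources used here.

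Counts were tested with edgeR 4.0.16 in R 4.3.3 (TMM, filterByExpr at its defaults, 10 for the count and 15 for the total, glmQLFit and glmQLFTest) over all 18547 genes that passed, with genotype as the only term and p-values adjusted by the Benjamini-Hochberg method at 0.05. A call is an unadjusted p under 0.05 unless said otherwise, values in brackets after a left-out library are log2 fold changes, adjusted p-values are edgeR's unless DESeq2 is named. CPM used the TMM factors, and levels between genes were compared in TPM only. The alternatives were DESeq2 1.42.0, RLE factors, upper quartile factors, library size alone, no filter, TPM over 0.1 in all libraries, the replicate number as a block, limma 3.58.1 on log2(TPM + 1) and log2(TPM + 0.1), and fits without each library in turn. The procedure was tested on simulated data, with a spread set below that of these data (biological coefficient of variation 0.557). That run does not show how often calls are wrong at the spread seen here.

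The members, the pathway list and the marker lists were chosen with earlier results of these data known. Values in every library are given for members with an unadjusted p under 0.05, the 2 with the highest TPM of each role group, the receptors, *Stat2*, *Socs1* and *Usp18*, and of the pathway list for *Irf9*, *Irf7* and the genes with an unadjusted p under 0.05. Apart from these, 1 gene of the pathway list that the rule covered is not reported here. *Isg15*, *Isg20*, *Eif2ak2*, *Ifitm1*, *Irgm1*, *Ifnl3*, *Ifng*, *Ifnz* and *Ifit3b* were singled out after their values were seen. In the pathway list 11 genes stood under an older symbol and were matched through RefSeq. Shared words are 50-base words of GENCODE M21 transcripts.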

Additional observations from a re-analysis of the deposited data

How the results depend on the processing

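Direction was the same in all 13 alternatives for 26 of the 45 members and turned in at least 1 for 19. *Ifit3*, *Ifitm3* and *Rtp4* kept an unadjusted p under 0.05 in all 13. With DESeq2, 2 members were higher instead of 1 and 3 instead of 0 passed the adjusted p (over all genes 354 against 1 in edgeR). In the pathway list DESeq2 gave 8 lower genes and 1 past the adjusted p. Upper quartile factors and library size alone moved the median of all genes to -0.0861 and -0.0932 and the share of higher calls from 61.4% to 48.4% and 46.2% (limma on TPM gave 51% and 51.2%). The members' median then was -0.2057 and -0.2149, the pathway median -0.3158 and -0.3232, with 9 lower and 1 higher pathway gene in both. With limma at either pseudocount, 1 pathway gene was higher. *Mx2* turned to -0.0386 and -0.0454 with upper quartile factors and library size alone, and *Ddx58* to -0.0012 with library size alone. *Isg15* turned to -0.0584 and -0.0609 with those 2 scalings, to -0.0188 and -0.0246 with limma at a pseudocount of 1 and 0.1, and to -0.0159 with the replicate number as a block. The cause was not tested.

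Replicate numbers are shared between the groups. The deviations of WT 1 and *Sirt6* cKO 1 from their group means had a correlation of -0.0544 over genes, so no shared deviation was seen. Whether samples of the same number shared a litter or a batch is not given in the sources used here. With the replicate block, 697 genes were higher and 449 lower over all genes, 4 members were lower and 1 higher, and *Ifit2* lost its call (-0.79). It ended no other member's call.

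Leaving out each library in turn gave 4 to 5 lower members, 0 to 2 higher members, and a members' median from -0.2347 (without *Sirt6* cKO 1) to -0.0876 (without WT 1). No member was higher without *Sirt6* cKO 1, and without WT 1 there were 2, *Eif2ak2* and *Rsad2*. In the pathway list there were 3 to 8 lower genes, 1 to 3 higher genes and a median from -0.2896 to -0.1435. The log2 fold changes that turned had these ranges. For the receptors and early steps, *Ifnar1* ran from -0.0419 to 0.2388, *Ifngr1* from -0.4084 to 0.0116, *Stat2* from -0.1085 to 0.2719, *Usp18* from -0.255 to 0.0438, *Ddx58* from -0.0004 to 0.1558 and *Zbp1* from -0.3402 to 0.0662. For the effectors, *Ifit1* ran from -0.2877 to 0.0109, *Oas2* from -0.4713 to 0.0155, *Oasl2* from -0.1556 to 0.0473, *Mx2* from -0.336 to 0.5201, *Gbp3* from -0.1503 to 0.05, *Gbp7* from -0.3545 to 0.0584 and *Irgm2* from -0.5089 to 0.1714. *Isg15* ran from -0.3945 to 0.3426, *Herc6* from -0.3558 to 0.0392, *Trim25* from -0.4896 to 1.413, *Parp9* from -0.2036 to 0.486, *Parp14* from -0.2426 to 0.6508 and *Ifi44* from -0.6927 to 0.1951. *Sirt6* stayed above 0 in all 13 alternatives. With 2 libraries a group, an edgeR p-value sets a difference against the spread of these samples, moderated by that of all genes. It draws on no other samples.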
